A study of Homo sapiens with 12 samples.

Results

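PTPRF and 9 related genes encode receptor protein tyrosine phosphatases, and their RNA was compared in MDA-MB-231, a human line of triple-negative breast cancer, after cells were transfected with locked nucleic acid (LNA) antisense oligonucleotides. The genes are PTPRF, PTPRS, PTPRM, PTPRK, PTPRG, PTPRJ, PTPRH, PTPRB, PTPRA and PTPRE, which are 10 of the 20 receptor tyrosine phosphatase genes and 10 of the 52859 genes of the count table. They were selected on their measured levels across the 4 LNA groups in these same libraries, so their values are given as a description and without a test. The study compared a control LNA with LNAs named mtAsn-1 and mtAsn-2, both directed at the mitochondrial asparagine tRNA, and with mtLys, directed at the mitochondrial lysine tRNA. All 4 groups received 20 nM of LNA with a lipid transfection reagent and were collected on day 2, with 3 libraries per group. The labels do not say that these libraries came from separate cultures, so p-values given for other genes measure only the spread between these libraries.

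Receptor tyrosine phosphatases cross the plasma membrane and remove phosphate from tyrosines inside the cell, acting against or together with tyrosine kinases. Their outer parts differ by subfamily and bind proteoglycans, contactins or identical molecules on neighbouring cells, while an inner catalytic domain acts on substrates such as catenins, growth factor receptors and SRC family kinases. In epithelial and carcinoma cells they are known for their place at cell junctions and adhesions.

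Total counts were 17978825 to 37708993 per library, and no library stood apart as a copy of another. All 8 markers of the cell line, among them VIM, CD44, AXL and EGFR, were at 1 CPM or more in every library, where CPM is the count of a gene per 1000000 counts of its library. Leukocyte markers summed to 77.36 to 80.58 CPM in control and to 94.5 to 118.5 CPM over the other 9 libraries, with 2 of 7 genes at 1 CPM or more everywhere and LCP2 at 0; CD68 made up most of the sum (75.95 ± 2.225 CPM, SD, n = 3, in control). The leukocyte phosphatase PTPRC did not exceed 0.334 CPM. Endothelial markers summed to 14.71 to 22.76 CPM. The 2 of 7 at 1 CPM or more everywhere were PECAM1 (mean 11.77 CPM in control) and KDR (6.381 CPM), while CDH5 did not exceed 0.03214 CPM. Luminal markers summed to 271 to 409.2 CPM. The 3 of 7 at 1 CPM or more everywhere were KRT19 (mean 341.4 CPM in control), GATA3 (13.29 CPM) and EPCAM (4.352 CPM). The hormone receptors ESR1 and PGR did not exceed 0.2781 and 0.03276 CPM. These sums moved between groups, and their part in the values given for the phosphatases was not tested.

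The upstream sequences of PTPRF and PTPRH are shown because these genes had the widest ranges over the groups and took opposite sides. Each is the 250 bases before a RefSeq transcription start (build GRCh38.p14), 5′ to 3′ on the strand of the gene, with every CpG in capitals. The PTPRF stretch lies at chr1:43530633-43530882 on the plus strand, and its start lies 8645 bases inside the first base that the count table gives for the gene. The PTPRH stretch lies at chr19:55209502-55209751 on the minus strand, 5 bases from the gene's first base in the count table.
PTPRF: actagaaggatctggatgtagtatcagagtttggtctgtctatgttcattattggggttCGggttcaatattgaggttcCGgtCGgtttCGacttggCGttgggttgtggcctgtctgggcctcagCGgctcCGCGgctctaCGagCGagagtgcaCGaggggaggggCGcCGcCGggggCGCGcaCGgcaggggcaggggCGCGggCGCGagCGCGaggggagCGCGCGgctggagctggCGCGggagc
PTPRH: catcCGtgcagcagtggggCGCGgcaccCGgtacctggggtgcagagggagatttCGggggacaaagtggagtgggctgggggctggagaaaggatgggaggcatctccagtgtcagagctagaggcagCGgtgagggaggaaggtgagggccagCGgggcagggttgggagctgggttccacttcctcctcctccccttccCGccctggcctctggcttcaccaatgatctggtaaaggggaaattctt
PTPRF held 28 CpG and PTPRH held 8, against a median of 11 and quartiles of 3 and 23 over 35116 RefSeq promoters of the same length.

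RefSeq promoters were matched for 8 of the 10 genes, and PTPRJ and PTPRB were not matched. PTPRE had 4 entries and PTPRM and PTPRA 2 each, and the entry nearest the gene's first base in the count table was kept. The others held 44 CpG in PTPRS, 42 in PTPRM, 38 in PTPRK, 32 in PTPRG, 28 in PTPRE and 7 in PTPRA. A count of 44 or fewer is found in 99.4% of all promoters, and a count of 7 or fewer in 43.7%. The motifs below were searched on both strands. The GC box GGGCGG, held by 42.6% of all promoters, matched 3 times in PTPRM, 2 times in PTPRE and 1 time each in PTPRH, PTPRK and PTPRS. The E-box CACGTG, held by 6.34% of promoters, matched in PTPRS alone among the 8, with 3 matches. The AP-1 letters TGANTCA (6.57% of promoters), the TATA letters TATAAA (10.7%) and the NF-kB motif (0.527%) matched in none of the 8.

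PTPRF, also called LAR, is the founding member of the subfamily with immunoglobulin and fibronectin repeats. Its counted exons lie in 43 blocks within 101.4 kb of chromosome 1, from 43522238 to 43623672 on the plus strand of hg38, and overlap no other annotated gene. Control libraries held 317.8, 284.7 and 278.4 CPM. With mtAsn-1 they held 442, 488.5 and 424.7 CPM, and with mtLys 434.7, 445.7 and 409.6 CPM. With mtAsn-2 they held 93.19, 91.01 and 94.41 CPM. All 6 mtAsn-1 and mtLys libraries lay above every control library, all 3 mtAsn-2 libraries lay below, and mtAsn-1 and mtLys overlapped each other. In bulk RNA, fewer cells of a type and less RNA per cell cannot be told apart.

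The mean PTPRF level was 3.16 times lower with mtAsn-2 than in control, and 1.54 and 1.46 times the control level with mtAsn-1 and mtLys. On the log2 scale of the edgeR fit the differences from control were -1.74 ± 0.0553 (SE) with mtAsn-2, 0.64 ± 0.0526 with mtAsn-1 and 0.56 ± 0.0523 with mtLys. The difference between the LNAs against the same tRNA, mtAsn-1 minus mtAsn-2, was 2.37 ± 0.0559. Of 16051 genes tested, 3 had a larger value in that comparison, namely SMPX, OPRD1 and SYT16, and none of these exceeded 1.46 CPM in either group. Between mtAsn-2 and mtLys the PTPRF difference was -2.30 ± 0.0555, with 8 genes lower, the most abundant of them ALPP at 3.87 CPM with mtLys. These comparisons share libraries and are not independent of each other.

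**Figure D1:**
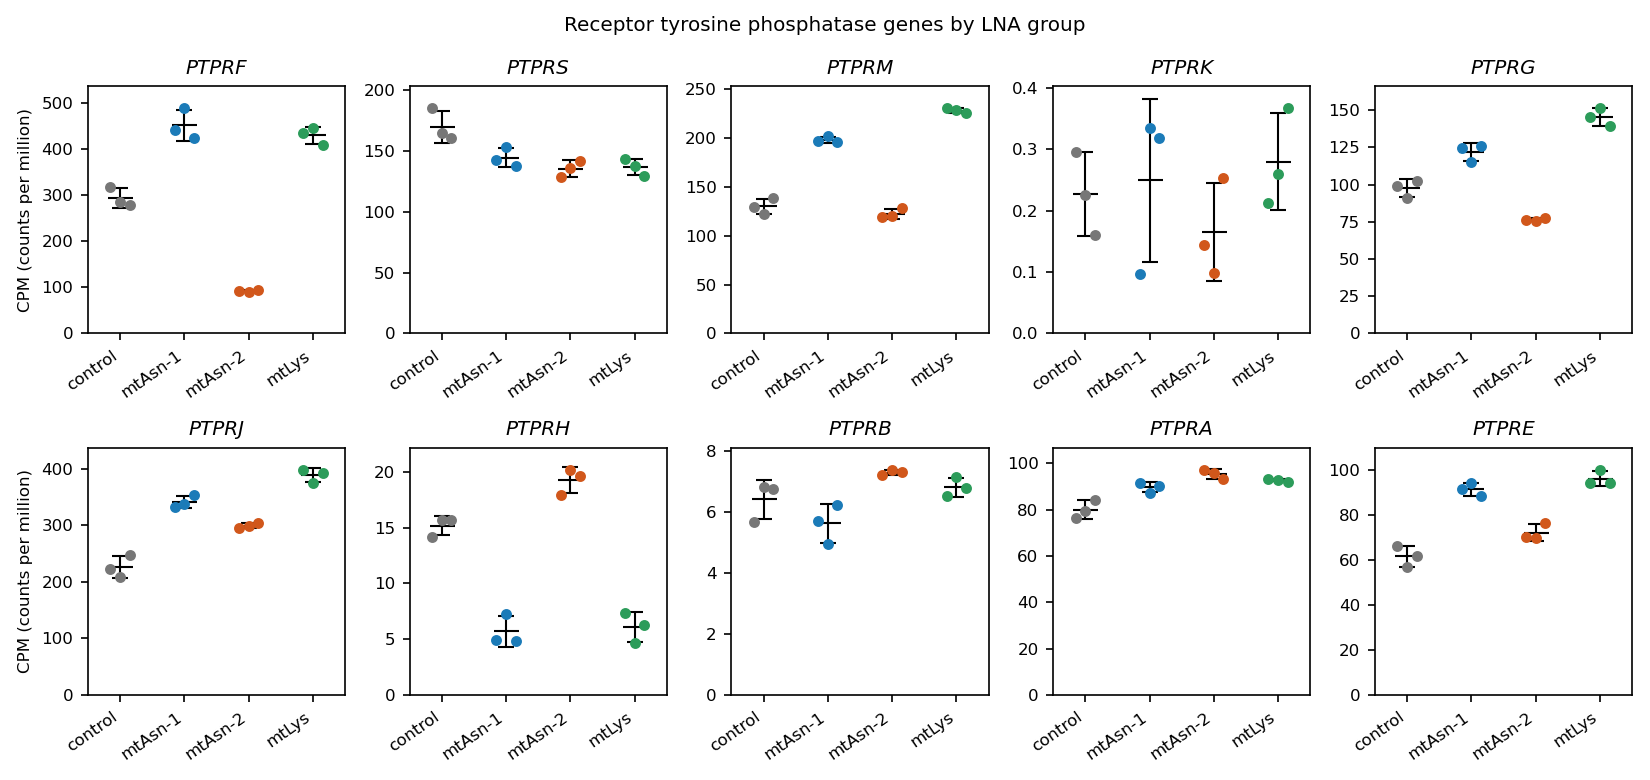
Levels of the 10 receptor tyrosine phosphatase genes in CPM (vertical axes, each from 0) in the control group and the mtAsn-1, mtAsn-2 and mtLys groups. Points are single libraries, and the horizontal marks and bars are the mean and SD of 3 libraries; PTPRF with mtAsn-2 lies at 91.01 to 94.41 CPM, below every other group, and PTPRH with mtAsn-2 lies above every other group.

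PTPRS, the other expressed phosphatase of the LAR subfamily and a receptor for heparan and chondroitin sulfate proteoglycans, was lower with every LNA. Its exons lie on chromosome 19 from 5205503 to 5340812 on the minus strand. Control libraries held 184.8, 164.4 and 160.5 CPM, and mtAsn-1 libraries 142.5, 153.3 and 137.6 CPM. The mtAsn-2 libraries held 128.4, 135.7 and 142 CPM, and the mtLys libraries 143.1, 137.8 and 129.4 CPM. Each LNA group lay wholly below control, and on CPM the 3 LNA groups overlapped one another. On TMM-scaled CPM, a scaling tried after the data were seen, mtAsn-1 lay wholly above mtAsn-2. The log2 difference between these 2 groups was 0.19 ± 0.0553 (SE). The log2 differences from control were -0.22 ± 0.0553, -0.41 ± 0.0546 and -0.30 ± 0.0546 (SE) with mtAsn-1, mtAsn-2 and mtLys. PTPRS thus shared with PTPRF the side taken under mtAsn-2 and not the side taken under the other 2 LNAs.

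PTPRM and PTPRK belong to the subfamily with a MAM domain, whose members bind identical molecules on the neighbouring cell. PTPRM spans 839.5 kb of chromosome 18, from 7567316 to 8406861 on the plus strand. Its control libraries held 129.9, 122.3 and 138.3 CPM and its mtAsn-2 libraries 119.1, 120 and 128.3 CPM, so the groups overlapped. With mtAsn-1 it reached 196.7, 202 and 196.5 CPM, and with mtLys 230.4, 228.6 and 225.8 CPM. Both of these groups lay above control, and mtLys lay above mtAsn-1 in every library. The log2 differences from control were 0.63 ± 0.0439 for mtAsn-1, -0.16 ± 0.0439 for mtAsn-2 and 0.82 ± 0.0434 (SE) for mtLys. On TMM-scaled CPM, a scaling tried after the data were seen, the mtAsn-2 libraries lay wholly below control.

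PTPRK, on chromosome 6 from 127968785 to 128520603, had 2 to 10 reads per library and did not pass the low-count filter. Its levels ran from 0.09663 to 0.3661 CPM with all groups overlapping. A difference in PTPRK was not detectable at this depth.

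PTPRG carries a carbonic anhydrase-like domain and binds contactins. It spans 736.0 kb of chromosome 3, from 61561571 to 62297609, and 176 of its exon bases overlap the opposite-strand PTPRG-AS1, which had 97 to 224 reads per library. Whether counting used strand is not given in the sources used here, so reads in that overlap cannot be assigned with certainty. Control libraries held 99.31, 91.02 and 102.6 CPM, mtAsn-1 libraries 124.9, 115.2 and 126 CPM, mtAsn-2 libraries 76.25, 75.68 and 77.36 CPM, and mtLys libraries 145.7, 151.2 and 139.1 CPM. No libraries of any pair of groups overlapped, in the order mtAsn-2, control, mtAsn-1, mtLys. The log2 differences from control were 0.34 ± 0.0472, -0.43 ± 0.0474 and 0.59 ± 0.0462 (SE) with mtAsn-1, mtAsn-2 and mtLys. On CPM, PTPRG and PTPRF were thus the 2 genes above control with mtAsn-1 and mtLys and below it with mtAsn-2. That pattern was found on CPM in 316 of the tested genes, or 1.97%. On TMM-scaled CPM PTPRM took it too.

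PTPRJ, PTPRH and PTPRB form a subfamily with fibronectin repeats outside the cell. PTPRJ, also called DEP-1 and known for acting on growth factor receptors such as MET and EGFR, lies on chromosome 11 from 47980504 to 48170839. Its libraries held 222.4, 209.2 and 246.7 CPM in control, 332.3, 337.7 and 353.5 CPM with mtAsn-1, 295.1, 298.2 and 304.1 CPM with mtAsn-2, and 398, 375.5 and 393.5 CPM with mtLys. The order control, mtAsn-2, mtAsn-1, mtLys held without overlap between any 2 neighbours. The log2 differences from control were 0.61 ± 0.0458, 0.33 ± 0.0455 and 0.79 ± 0.0455 (SE) in the order mtAsn-1, mtAsn-2, mtLys.

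PTPRH, also called SAP-1, is a phosphatase known from the brush border of the intestine. It lies on chromosome 19 from 55181247 to 55209506 on the minus strand and overlaps no annotated gene. Control libraries held 14.19, 15.72 and 15.67 CPM. With mtAsn-1 they held 4.928, 7.286 and 4.874 CPM and with mtLys 7.372, 4.626 and 6.297 CPM. With mtAsn-2 they held 17.94, 20.18 and 19.62 CPM. The mtAsn-1 and mtLys groups overlapped each other and lay below control, and mtAsn-2 lay above it, the reverse of PTPRF in every comparison with control. These levels rest on 102 to 625 reads per library.

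The mean PTPRH level was 2.67 times lower than control with mtAsn-1 and 2.49 times lower with mtLys, and 1.27 times the control level with mtAsn-2. The log2 differences were -1.43 ± 0.15, -1.30 ± 0.137 and 0.27 ± 0.12 (SE) with mtAsn-1, mtLys and mtAsn-2. Between mtAsn-1 and mtAsn-2 the difference was -1.69 ± 0.144, with 87 of the tested genes lower. The pattern of PTPRH, below control with mtAsn-1 and mtLys and above it with mtAsn-2, was found on CPM in 469 tested genes, or 2.92%.

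PTPRB, the vascular endothelial member of this subfamily, lies on chromosome 12 from 70515870 to 70637440 and was low. Control libraries held 5.652, 6.814 and 6.746 CPM, mtAsn-1 libraries 5.701, 4.95 and 6.216 CPM, and mtLys libraries 6.524, 7.142 and 6.773 CPM. The mtAsn-2 libraries held 7.206, 7.371 and 7.289 CPM. Control overlapped both mtAsn-1 and mtLys, and on CPM the mtAsn-2 libraries lay above every other library of the gene. On TMM-scaled CPM they overlapped the mtLys libraries, and the log2 difference between mtAsn-2 and mtLys was 0.013 ± 0.0953 (SE). The log2 differences from control ran from -0.15 ± 0.11 with mtAsn-1 to 0.11 ± 0.1 (SE) with mtAsn-2, and the gene had 89 to 251 reads per library.

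PTPRA and PTPRE have short outer parts and are known for activating SRC family kinases by removing an inhibitory phosphate. PTPRA lies on chromosome 20 from 2864195 to 3038669, and 547 of its exon bases (13.76%) are shared with VPS16 on the same strand, so some of its reads may have been counted for either gene or for neither. Control libraries of PTPRA held 76.33, 79.55 and 84.24 CPM, mtAsn-1 libraries 91.61, 87.38 and 90.17 CPM, mtAsn-2 libraries 97.12, 95.83 and 93.02 CPM, and mtLys libraries 93.24, 92.79 and 92.14 CPM. All 9 libraries with a tRNA-directed LNA lay above control, with means 1.12, 1.19 and 1.16 times that of control for mtAsn-1, mtAsn-2 and mtLys. On the log2 scale, which carries the TMM scaling, the differences from control were 0.18 ± 0.044, 0.18 ± 0.043 and 0.22 ± 0.0431 (SE), so the order of the 3 LNAs was not the same on both scales. With mtAsn-1 and mtLys these differences were narrower than those of PTPRE and PTPRJ, the other genes above control with all 3 LNAs.

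PTPRE lies on chromosome 10 from 127907053 to 128085855. Its libraries held 66.06, 56.89 and 61.56 CPM in control, 91.51, 94.06 and 88.08 CPM with mtAsn-1, 69.88, 69.52 and 76.28 CPM with mtAsn-2, and 94.06, 99.81 and 94.16 CPM with mtLys. All LNA groups lay above control, and mtAsn-2 lay below the other 2 LNA groups. On TMM-scaled CPM the mtAsn-2 and control libraries of PTPRE overlapped. The log2 differences from control were 0.59 ± 0.0537, 0.15 ± 0.0532 and 0.65 ± 0.0525 (SE) with mtAsn-1, mtAsn-2 and mtLys.

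**Figure D2:**
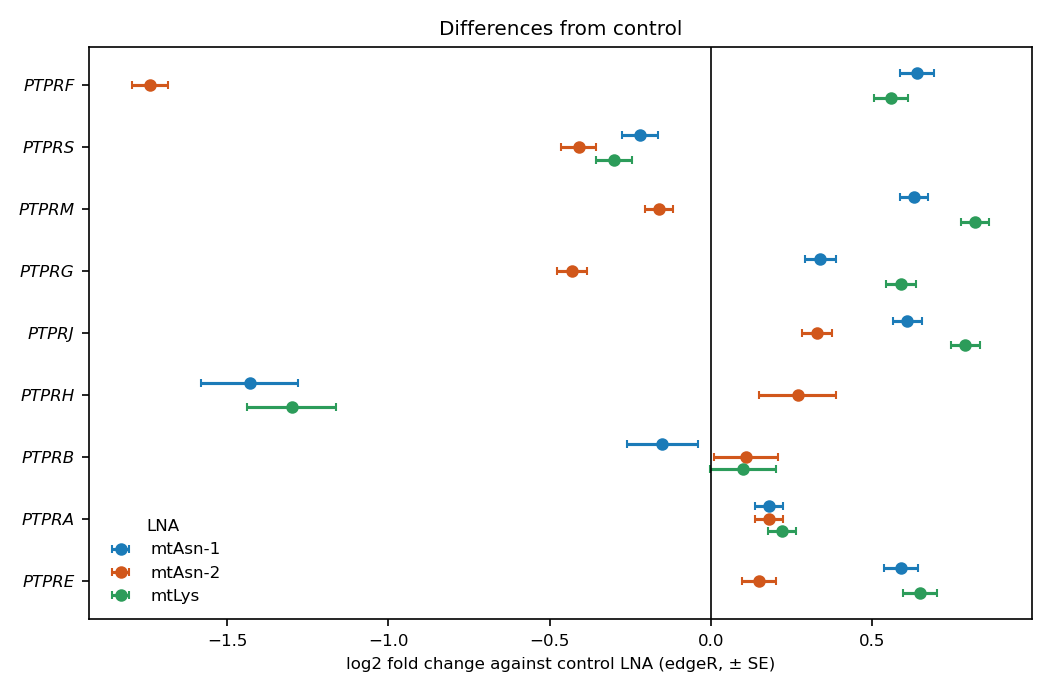
Differences from control on the log2 scale (horizontal axis, edgeR fit) for the 9 genes that passed the low-count filter, with bars for the SE and 1 colour per LNA. PTPRF with mtAsn-2 lies at -1.74 and PTPRH with mtAsn-1 and mtLys at -1.43 and -1.30, while mtAsn-1 and mtLys lie on the same side of 0 for every gene shown except PTPRB.

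Over the 10 genes, 6 lay above control, 2 below and 2 overlapped it with mtAsn-1. Libraries apart from control in either direction were found for 54% of all tested genes in that comparison. With mtAsn-2, 5 genes lay above control, 3 below and 2 overlapped (4 above and 4 below on TMM-scaled CPM), with 58.1% of all tested genes apart. With mtLys, 6 lay above, 2 below and 2 overlapped, with 56.3% of all tested genes apart. Since the genes were chosen by these values, nothing is read from their counts.

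Among the LNAs, mtAsn-1 lay above mtAsn-2 for 5 of the 10 genes and below it for 3 (6 and 2 on TMM-scaled CPM), with 56.2% of all tested genes apart. Against mtLys, mtAsn-1 lay above for 0 genes and below for 6 (5 on TMM-scaled CPM), with 24% of all tested genes apart. Against mtLys, mtAsn-2 lay above for 2 genes, PTPRH and PTPRB, and below for 5 (1 and 6 on TMM-scaled CPM), with 59.9% apart. The median log2 difference over the 9 genes in the fit was -0.46 between mtAsn-2 and mtLys and -0.12 between mtAsn-1 and mtLys, beside 0.005 and 0.000 over all tested genes.

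Levels were compared between genes only per length, as RPKM (CPM divided by the exon length in kilobases). PTPRF had the highest RPKM of the family in control (35.27 ± 2.539, SD, n = 3), with mtAsn-1 (54.26 ± 3.963) and with mtLys (51.65 ± 2.227), and it was the fifth highest with mtAsn-2 (11.16 ± 0.2069). With mtAsn-2 the highest mean RPKM was that of PTPRJ (30.92), followed by PTPRA (23.98), PTPRS (17.83) and PTPRM (17.22). PTPRH ran from 1.228 RPKM with mtAsn-1 to 4.15 RPKM with mtAsn-2, and PTPRB stayed between 0.4225 and 0.5477 RPKM. PTPRH was therefore a minor gene of the family in every group.

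Summed over all 20 family genes, RPKM was 146.9 ± 5.588 (SD, n = 3) for control and 192.9 ± 4.838 for mtAsn-1. It was 128.3 ± 2.841 for mtAsn-2 and 201.2 ± 3.54 for mtLys. The 2 higher groups lay apart from the 2 lower ones. PTPRF made up 24.01% ± 1.379 of that sum in control and 8.696% ± 0.1562 with mtAsn-2, while PTPRJ made up 15.91% and 24.1%. With mtAsn-1 and mtLys the PTPRF share was 28.1% ± 1.342 and 25.67% ± 0.7801. The PTPRS share was 15.24% for control, 9.862% for mtAsn-1, 13.89% for mtAsn-2 and 8.956% for mtLys, so the make-up of the family differed by group as well as its sum.

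**Figure D3:**
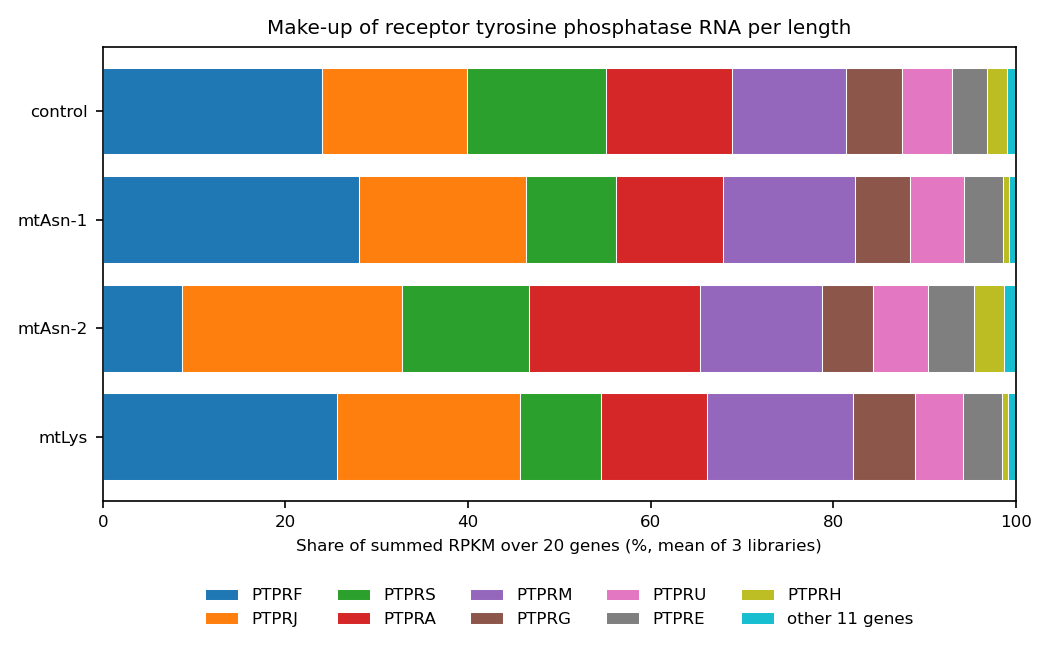
Share of each gene in the summed RPKM of the 20 receptor tyrosine phosphatase genes (horizontal axis, percent, mean of 3 libraries) for the 4 LNA groups. PTPRF takes 24.01% in control, 28.1% with mtAsn-1, 25.67% with mtLys and 8.696% with mtAsn-2. With mtAsn-2, PTPRJ, PTPRA, PTPRS and PTPRM take larger shares than PTPRF.

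The 10 other receptor tyrosine phosphatase genes were tested with edgeR's quasi-likelihood test, with Benjamini-Hochberg adjustment over all 16051 tested genes. Over all genes that test called 24.3% higher and 24.2% lower with mtAsn-1, 24.1% higher and 27% lower with mtAsn-2, and 24.6% higher and 23.9% lower with mtLys. Only 4 of the 10 passed the low-count filter, PTPRU, PTPRN, PTPRN2 and PTPRR. PTPRD and PTPRT had 0 reads in every library, and PTPRC, PTPRO, PTPRQ and PTPRZ1 were too low to test. With mtAsn-1, 2 of the 4 rose and 0 fell, with mtAsn-2, 1 rose and 0 fell, and with mtLys, 3 rose and 0 fell. At an unadjusted p under 0.05 in edgeR, 0, 1 and 0 of them were lower in that order, and DESeq2 called 0 lower with each LNA. Without control replicate 2 or without mtAsn-2 replicate 3, 0 rose and 1 fell with mtAsn-2, and without mtAsn-2 replicate 2, 2 rose.

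PTPRU, of the same MAM subfamily as PTPRM, held 50.02, 42.59 and 45.04 CPM in control, 65.27, 68.91 and 62.9 CPM with mtAsn-1, 41.66, 42.43 and 48.27 CPM with mtAsn-2 and 61.74, 58.99 and 61.21 CPM with mtLys. It rose by 0.53 ± 0.0618 (SE) on the log2 scale with mtAsn-1 (edgeR, adjusted p = 6.26e-08) and by 0.41 ± 0.0604 with mtLys (adjusted p = 2.62e-06). With mtAsn-2 its difference was -0.13 ± 0.0618 (adjusted p = 0.0748). Without control replicate 2 that value was -0.19 (adjusted p = 0.0227), and without mtAsn-2 replicate 3 it was -0.20 (adjusted p = 0.00763). PTPRU was higher with mtAsn-1 than with mtAsn-2 by 0.67 ± 0.0608 (adjusted p = 7.79e-10), with no overlap of libraries.

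PTPRN2 and PTPRN are phosphatase-like proteins of secretory granules, and PTPRR acts on MAP kinases. PTPRN2 rose by 0.98 ± 0.145 with mtAsn-1 and 0.96 ± 0.138 (SE) with mtLys (edgeR, adjusted p = 2.35e-06 and 1.35e-06), from 2.99 CPM in control. Its rise of 0.40 ± 0.145 with mtAsn-2 (adjusted p = 0.0215) was 0.30 (adjusted p = 0.139) without control replicate 2 and 0.26 (adjusted p = 0.169) without mtAsn-2 replicate 3. PTPRN rose with mtLys by 1.01 ± 0.278 (adjusted p = 0.00345) from 0.511 CPM. PTPRR passed the test against control with no LNA, and was higher with mtAsn-2 than with mtLys by 0.56 ± 0.14 (adjusted p = 0.00149). Without mtAsn-2 replicate 2, its difference between mtAsn-2 and control was 0.38 (adjusted p = 0.043), and its value with all libraries was 0.30 (adjusted p = 0.0811).

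Non-receptor tyrosine phosphatases work inside the cell on many of the same pathways. Of 17 genes 14 were tested: 6 rose and 1 fell with mtAsn-1, 4 rose and 4 fell with mtAsn-2, and 7 rose and 0 fell with mtLys (4 rose without mtLys replicate 1, and 4 without mtLys replicate 2). At an unadjusted p under 0.05 in edgeR 0 were lower with mtLys, and DESeq2 called 0 lower. The median log2 differences were 0.090, -0.033 and 0.14, beside -0.004, -0.007 and -0.001 over all tested genes. PTPN13 rose by 0.28 ± 0.0673 (SE) with mtAsn-1 (edgeR, adjusted p = 0.00107) and fell by 0.61 ± 0.0685 with mtAsn-2 (adjusted p = 1.49e-08), which are the sides taken by PTPRF. With mtLys it rose by 0.17 ± 0.0652 (adjusted p = 0.0315), a call lost in DESeq2 (adjusted p = 0.0505) and without control replicate 2, mtLys replicate 1 or mtLys replicate 2 (adjusted p = 0.17, 0.0694 and 0.177). PTPN21 took the same sides, with 0.22 ± 0.0541, -0.26 ± 0.0536 and 0.31 ± 0.0522 for mtAsn-1, mtAsn-2 and mtLys (edgeR, adjusted p = 0.00143, 0.000216 and 1.83e-05). PTPN11, the SHP2 phosphatase of growth factor signalling, rose by 0.46 ± 0.0426 with mtAsn-2 (adjusted p = 4.2e-10) and by 0.15 ± 0.0427 with mtLys (adjusted p = 0.00395). With mtAsn-1 its rise was 0.11 ± 0.0431 (adjusted p = 0.0324), and it did not pass without control replicate 1, control replicate 3, mtAsn-1 replicate 1 or mtAsn-1 replicate 3 (adjusted p = 0.0789, 0.0768, 0.178 and 0.101). PTPN3 rose with all 3 LNAs, by 0.32, 0.43 and 0.25 with mtAsn-1, mtAsn-2 and mtLys. The gene that fell with mtAsn-1 was PTPN6, with -0.44 ± 0.15 (adjusted p = 0.0156), and it did not pass without control replicate 2 (adjusted p = 0.0666), control replicate 3 (adjusted p = 0.0763) or mtAsn-1 replicate 3 (adjusted p = 0.0606).

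Cytoplasmic partners of LAR phosphatases, such as liprins and TRIO, link them to the cytoskeleton and to adhesion sites, and all 12 were tested. With mtAsn-1, 4 rose and 2 fell, with mtAsn-2, 0 rose and 4 fell, and with mtLys, 7 rose and 1 fell, with medians of 0.23, -0.070 and 0.27. Without control replicate 2 or without mtLys replicate 3, 4 rose with mtLys. Without mtAsn-1 replicate 2, mtAsn-1 replicate 3 or mtLys replicate 2, 2 fell with mtLys, and without control replicate 2, control replicate 3 or mtAsn-1 replicate 2, 1 fell with mtAsn-1. At an unadjusted p under 0.05 in edgeR 0 were higher with mtAsn-2, and DESeq2 called 0 higher. With no low-count filter 2 rose there, and 1 rose with the compared groups alone or without mtAsn-1 replicate 2. ERC1, a scaffold at adhesion and secretion sites, had mean levels of 64, 89.4, 48.1 and 83.8 CPM for control, mtAsn-1, mtAsn-2 and mtLys, with log2 differences of 0.50 ± 0.0493, -0.49 ± 0.05 and 0.40 ± 0.0484 (SE), each past the test (edgeR, adjusted p = 2.3e-09, 3.31e-09 and 9.04e-08). It shares 76 exon bases with RAD52 on the opposite strand. TRIO, a guanine nucleotide exchange factor that binds LAR, rose by 0.39 ± 0.0448 with mtAsn-1 and 0.45 ± 0.0444 with mtLys (adjusted p = 4.22e-08 and 1.74e-09). With mtAsn-2 TRIO fell by 0.14 ± 0.0447 (adjusted p = 0.00844), which did not pass without control replicate 1 (-0.090, adjusted p = 0.104) or mtAsn-2 replicate 1 (-0.11, adjusted p = 0.0677). CASK, a membrane scaffold, fell by 0.73 ± 0.0616 with mtAsn-2 (adjusted p = 7.99e-11) and was -0.016 and -0.002 from control with mtAsn-1 and mtLys.

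Proteoglycans serve as ligands of PTPRF and PTPRS, and 12 of 18 listed genes were tested. With mtAsn-1, 7 rose and 1 fell, with mtAsn-2, 1 rose and 4 fell, and with mtLys, 7 rose and 1 fell, with medians of 0.33, -0.073 and 0.35. The glypican GPC6 rose by 1.03 ± 0.0821 with mtAsn-1 and 0.89 ± 0.0796 (SE) with mtLys (edgeR, adjusted p = 4.02e-11 and 3.1e-10), and its value with mtAsn-2 was -0.013. The syndecan SDC3 fell by 0.70 ± 0.0473 with mtAsn-2, from 208 to 135 CPM (adjusted p = 9.21e-13), and GPC1 fell by 0.54 ± 0.0489 there (adjusted p = 2.76e-10). SDC3 rose by 0.16 ± 0.047 with mtAsn-1 (adjusted p = 0.00479) and by 0.13 ± 0.0465 with mtLys (adjusted p = 0.0186), the latter not passing without control replicate 2 (adjusted p = 0.119) or mtLys replicate 2 (adjusted p = 0.0544). The gene that fell with mtAsn-1 was SDC2, by 0.40 ± 0.0479 (adjusted p = 8.51e-08), and it also fell with mtAsn-2 by 0.40 ± 0.0466 and with mtLys by 0.19 ± 0.0463 (adjusted p = 3.79e-08 and 0.00127). Without control replicate 3 or without mtAsn-1 replicate 2, 2 genes fell with mtAsn-1 and 2 with mtLys. The same counts came with DESeq2, with no low-count filter and with a replicate block. With a stricter low-count filter or the compared groups alone, 2 fell with mtLys.

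Protein ligands of the family were tested for 9 of 20 genes. With mtAsn-1, 5 rose and 3 fell, with mtAsn-2, 2 rose and 2 fell, and with mtLys, 6 rose and 2 fell, with medians of 0.46, 0.039 and 0.25. The growth factor midkine (MDK), a ligand of PTPRZ1, fell with all 3 LNAs from 133 CPM to 57.3, 62.9 and 53.7 CPM, by 1.20 ± 0.0533, 1.16 ± 0.0515 and 1.30 ± 0.052 (SE) with mtAsn-1, mtAsn-2 and mtLys (edgeR, adjusted p = 2.66e-16, 9.61e-17 and 4.79e-17). The contactin CNTN1 rose by 1.42 ± 0.175 with mtAsn-1 and 1.56 ± 0.164 with mtLys, from 1.40 CPM in control (adjusted p = 1.16e-07 and 6.99e-09). Its rise of 0.49 with mtAsn-2 (adjusted p = 0.0267) did not pass without control replicate 2 (0.33, adjusted p = 0.192) or without mtAsn-2 replicate 2 (0.40, adjusted p = 0.106). Of the other listed contactins, CNTN3, CNTN4 and CNTN6 were at 0 CPM in every group, and CNTN5 did not exceed 0.05312 CPM. Without mtAsn-2 replicate 2, 0 protein ligands rose with mtAsn-2, and without control replicate 2, control replicate 3 or mtAsn-2 replicate 1, 1 rose.

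Substrates and junction partners were tested for 19 of 22 genes. With mtAsn-1, 6 rose and 8 fell, with mtAsn-2, 2 rose and 11 fell (1 rose without mtAsn-2 replicate 1), and with mtLys, 7 rose and 9 fell, with medians of -0.078, -0.25 and -0.12. JUP, the junctional catenin also called plakoglobin, fell with every LNA. Its mean control level of 177 CPM compared with 134, 88.6 and 130 CPM under mtAsn-1, mtAsn-2 and mtLys. Its log2 values were -0.39 ± 0.0553, -1.07 ± 0.0556 and -0.44 ± 0.0545 (SE) (edgeR, adjusted p = 3.26e-06, 9.26e-14 and 3.97e-07). The receptor kinase MET, a known PTPRJ substrate, rose by 0.34 ± 0.0448 with mtAsn-1 and 0.46 ± 0.0443 with mtLys (adjusted p = 3.95e-07 and 1.25e-09). SRC, which PTPRA and PTPRE act on, fell by 0.39 ± 0.063 with mtAsn-1 and 0.49 ± 0.0615 with mtLys (adjusted p = 1.59e-05 and 4.42e-07). With mtAsn-2 SRC fell by 0.15 ± 0.0605 (adjusted p = 0.0367), a call lost in DESeq2 (adjusted p = 0.0606) and without control replicate 1, control replicate 2, mtAsn-2 replicate 1 or mtAsn-2 replicate 2 (adjusted p = 0.164, 0.125, 0.14 and 0.171).

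Proteases that cut these receptors during maturation or shedding were tested for 11 of 12 genes. With mtAsn-1, 5 rose and 2 fell, with mtAsn-2, 5 rose and 2 fell, and with mtLys, 6 rose and 2 fell, with medians of 0.16, 0.090 and 0.16. FURIN, a proprotein convertase, rose by 0.38 ± 0.042 (SE) with mtAsn-2 (edgeR, adjusted p = 1.34e-08). PCSK7, another convertase, rose by 0.73 ± 0.0657 with mtAsn-1 and 0.78 ± 0.0632 with mtLys (adjusted p = 3.55e-10 and 5.19e-11), and by 0.42 ± 0.0643 with mtAsn-2 (adjusted p = 3.46e-06). NCSTN, a subunit of the gamma-secretase complex, rose with all 3 LNAs by 0.42, 0.41 and 0.47. PCSK7 shares 2232 exon bases with the opposite-strand TAGLN, so part of its reads may belong to that gene.

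**Figure D4:**
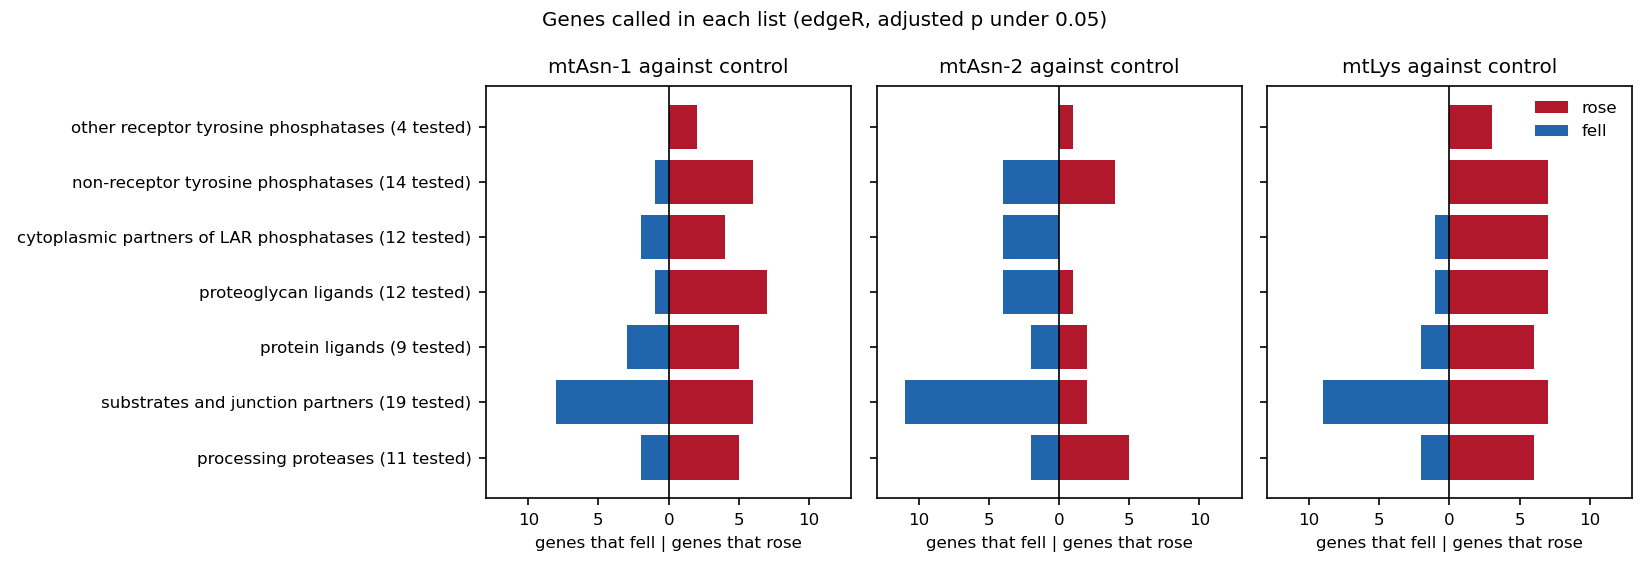
Number of genes in each list that rose (to the right) or fell (to the left) against control (horizontal axes, genes, edgeR adjusted p under 0.05), with the number tested in parentheses and 1 panel per LNA. Cytoplasmic partners of LAR phosphatases had 4 rises with mtAsn-1, 7 with mtLys and 0 with mtAsn-2, where 4 fell.

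The genes most like PTPRF were sought by the root mean square difference of the 3 log2 differences from control, among 10852 genes with a mean log2 CPM of at least 2. These were SCD5 (0.293), DIP2C (0.335), OFD1 (0.387), PPIC (0.43) and FARP1 (0.434). SCD5, a stearoyl-CoA desaturase, held mean levels of 52.9, 72, 22.7 and 68.5 CPM in control, mtAsn-1, mtAsn-2 and mtLys. DIP2C held 42.3, 59.3, 19.7 and 59 CPM in the same order. Being chosen for likeness to PTPRF, all 5 were lower with mtAsn-2, with PPIC at -1.86, SCD5 at -1.30 and DIP2C at -1.18 on the log2 scale, and none exceeded the PTPRF difference with mtAsn-1 or mtLys. OFD1 and PPIC were nearer to control with mtAsn-1 and mtLys (0.073 to 0.20 and 0.053 to 0.088) than PTPRF was. FARP1 shares 3011 exon bases with STK24 on the opposite strand, which had up to 2691 reads per library, so part of its reads may belong to that gene.

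Neighbouring tested genes of PTPRF and PTPRH were looked at after their values were seen. KDM4A, 26477 bases after PTPRF, fell by 0.33 ± 0.0465 (SE) with mtAsn-2 (edgeR, adjusted p = 9.41e-07) and differed by 0.020 and -0.008 with mtAsn-1 and mtLys (adjusted p = 0.763 and 0.908). Its difference with mtAsn-2 was smaller than that of PTPRF. Beside PTPRH, DNAAF3 rose by 0.63 with mtAsn-1 and 0.42 with mtLys (adjusted p = 1.6e-05 and 0.00112), where PTPRH was lower. With mtAsn-2, where PTPRH was higher, it rose by 0.27 ± 0.103 (adjusted p = 0.0285), and did not pass without control replicate 2, mtAsn-2 replicate 2 or mtAsn-2 replicate 3 (adjusted p = 0.205, 0.0616 and 0.155). TMEM86B, on the other side of PTPRH, differed by 0.068 with mtAsn-1 and -0.15 with mtLys (adjusted p = 0.555 and 0.138). It rose by 0.21 ± 0.0824 with mtAsn-2 (adjusted p = 0.0362), and did not pass without control replicate 2, control replicate 3, mtAsn-2 replicate 2 or mtAsn-2 replicate 3 (adjusted p = 0.139, 0.155, 0.0944 and 0.0808).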

How the data were processed

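The authors deposited raw counts of reads per gene, 1 column for each of the 12 libraries, without normalisation. The submitters' processing notes name FastQC, STAR 2.6.0a, featureCounts, DESeq2 and hg38; strandedness is not given in the sources used here. Per the labels' protocols, total RNA went into TruSeq RNA v2 libraries. Of 52897 lines, 52859 genes were used; 12 genes with broken lines, none of them a receptor tyrosine phosphatase, and 26 fragments were left out. CPM and RPKM used total counts and the exon length of the table. Counts were fitted with edgeR 4.0.16 under R 4.3.3, using TMM factors (1.0420 to 1.0495 for mtAsn-2, 0.9737 to 0.9944 for the others), filterByExpr (minimum count 10, minimum total 15), robust quasi-likelihood tests in 1 fit of all 12 libraries and Benjamini-Hochberg adjustment within each comparison, with calls at adjusted p under 0.05. The procedure was tested on simulated data for mtAsn-1 against control alone. Far fewer genes were changed there than the fits called, so changes as wide as these were not covered. Standard errors were worked back from each log2 fold change and its F statistic. Alternatives were RLE factors, DESeq2 1.42.0, no and stricter low-count filters, a replicate block, the compared groups alone and each library left out.

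The 10 genes and the lists were chosen with earlier results of these data known. Named from each list were up to 2 genes per direction and comparison with control by smallest adjusted p, with all tested family genes and the 5 genes nearest to PTPRF; a choice of these is printed, with other values of the same genes beside them, and some are not reported here. Neighbours of PTPRF and PTPRH, the promoter stretches and the levels of the contactins other than CNTN1 were added after the values were seen. Libraries of 1 replicate number did not deviate together (correlations -0.099 to 0.042 over 18 pairs), so the numbers were not taken to pair samples.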

Additional observations from a re-analysis of the deposited data

How the results depend on the processing

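The fits called 7787, 8199 and 7785 genes against control for mtAsn-1, mtAsn-2 and mtLys, and 7465, 845 and 7807 genes for mtAsn-1 against mtAsn-2, mtAsn-1 against mtLys and mtAsn-2 against mtLys. With a replicate block the counts were 7503, 7944, 7504, 7153, 676 and 7489 in the same order. Leaving out 1 library gave 6737 to 7898, 7457 to 8524, 6758 to 8167, 6480 to 7560, 404 to 922 and 6830 to 8122, and the 404 came without mtLys replicate 2. Other settings gave 6457 to 7777, 6682 to 8223, 6316 to 7949, 6367 to 7467, 676 to 1030 and 6547 to 8126. For the 9 fitted phosphatases, 54 log2 differences had 972 alternative values, of which 0 moved by more than 1 SD between libraries of the compared groups. Leaving out 1 of 3 libraries can hardly move a difference that far, so nothing is read from this 0 for those settings. The largest shift was 1.15 fold, for PTPRH between mtAsn-1 and mtLys. A change of sign occurred in 3 of the 54 differences, all small: PTPRA between mtAsn-1 and mtAsn-2, PTPRH between mtAsn-1 and mtLys, and PTPRB between mtAsn-2 and mtLys. For the named genes outside the 10, 1583 of 1607 alternative values kept their direction and their side of the threshold. The exceptions include 2 reversals, both of PTPRN with mtAsn-2, whose log2 difference of -0.17 became 0.042 without control replicate 2 and 0.082 without mtAsn-2 replicate 2, in a range of -0.49 to 0.082 over libraries left out. Of the rest, 19 lost their call and 3 gained one. The calls given above as lost for TRIO, SRC, PTPN11, PTPN13, SDC3, DNAAF3 and TMEM86B lie outside these counts. List counts moved by over 1.5 times in 47 of 756 alternative values, in 15 of 42 counts. The cause of these shifts was not tested. PTPRK, at 2 to 10 reads per library, and PTPRB are limited by depth.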
